A study of Mus musculus with 16 samples.

Results

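Medullary thymic epithelial cells that display much MHC class II (mTEChi) were compared with those that display little (mTEClo) in mice that lack Psmb11. The comparison rests on 6 of the 16 sequenced samples, the 3 mTEChi and the 3 mTEClo libraries whose label gives the genotype as psmb11 -/- (KO). They were chosen by their labels alone. The same pair of populations from psmb11 +/+ mice (WT, 3 libraries each) entered the fit as well and was used to test where the KO difference departed from the WT difference. The labels give every sample the strain "C57BL/6-derived BAC" and thymus as the tissue, and name no treatment. The RNA protocol calls the mice C57BL/6. The labels conflict on the animals, with 6 to 8 weeks and 11 thymi in some places and 7 days and 14 mice in the RNA protocol. Medullary cells were sorted as CD45-negative, EpCAM-positive, Ly51-negative cells that bound the lectin UEA1. The antibody that separated MHC II high from low cells is not named, and neither the number of animals per library nor whether one thymus gave both populations is stated. The p-values below therefore measure the spread between these libraries.

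Psmb11 encodes beta5t, a catalytic subunit of the thymoproteasome, which cortical epithelial cells use to make the peptides that select CD8 T cells. Medullary cells serve a later step, in which self-reactive thymocytes are removed or diverted into the regulatory lineage. Mature mTEChi carry costimulatory ligands and express genes of peripheral tissues, many of them under the control of Aire. The mTEClo gate holds immature cells, chemokine-producing cells and terminally differentiated cells such as tuft cells.

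The 6 KO libraries held between 71741533 and 146707262 reads in genes. Levels are given as CPM, counts scaled to library size, here with TMM factors. On the scale of library totals, without TMM factors, 3 counts corresponded to at most 0.0418 CPM in any KO library. Psmb11 (chromosome 14, 54625310 to 54629556, mm10) had 177, 111 and 115 counts in KO mTEClo and 74, 87 and 172 counts in KO mTEChi. WT libraries had 707, 1220 and 778 counts in mTEClo and 889, 1672 and 598 counts in mTEChi. KO was lower than WT by a log2 fold change of -2.93 (SE 0.24, edgeR adjusted p = 9.35e-05) in mTEClo and of -3.34 (SE 0.25, edgeR adjusted p = 2.16e-05) in mTEChi, so the target checks the labels in both populations. Between the KO populations Psmb11 did not pass the test (log2 fold change -0.40, SE 0.25, edgeR adjusted p = 0.143). Reads outside annotated genes made up 13.7% to 17.4% of the KO mTEClo libraries and 19.8% to 22.4% of the KO mTEChi libraries, without overlap, and the part of this in the results below was not tested.

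KO mTEChi and KO mTEClo differed across most of the transcriptome. Of 19816 genes tested, 8564 (43.2%) were called higher and 7371 (37.2%) lower in KO mTEChi at an adjusted p under 0.05 (edgeR's quasi-likelihood test with Benjamini-Hochberg adjustment). The median log2 fold change of all genes was 0.09. A change of at least 2-fold was called for 6641 genes (33.5%) upward and 2397 genes (12.1%) downward. Levels in the 3 KO mTEChi libraries lay above all 3 KO mTEClo libraries for 8697 genes (43.9%) and below them for 7416 genes (37.4%). These shares are the background for the counts below. The split depended on the scaling: 53.7% of the calls were upward with TMM factors and 65.8% with library totals alone, which gave 10152 higher and 5278 lower and raised the median of all genes by 0.25 on the log2 scale. More genes were detected in KO mTEChi: after every KO library was thinned to 71741533 counts, 20864 ± 147 genes had at least 1 count in KO mTEChi and 18390 ± 151 in KO mTEClo (SD, n = 3 each). The groups did not overlap, and the two-sided exact permutation test gave p = 0.1, the smallest value that 3 against 3 libraries allow. In these bulk samples, fewer cells of a type and less of a transcript per cell cannot be told apart.

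**Figure D1:**
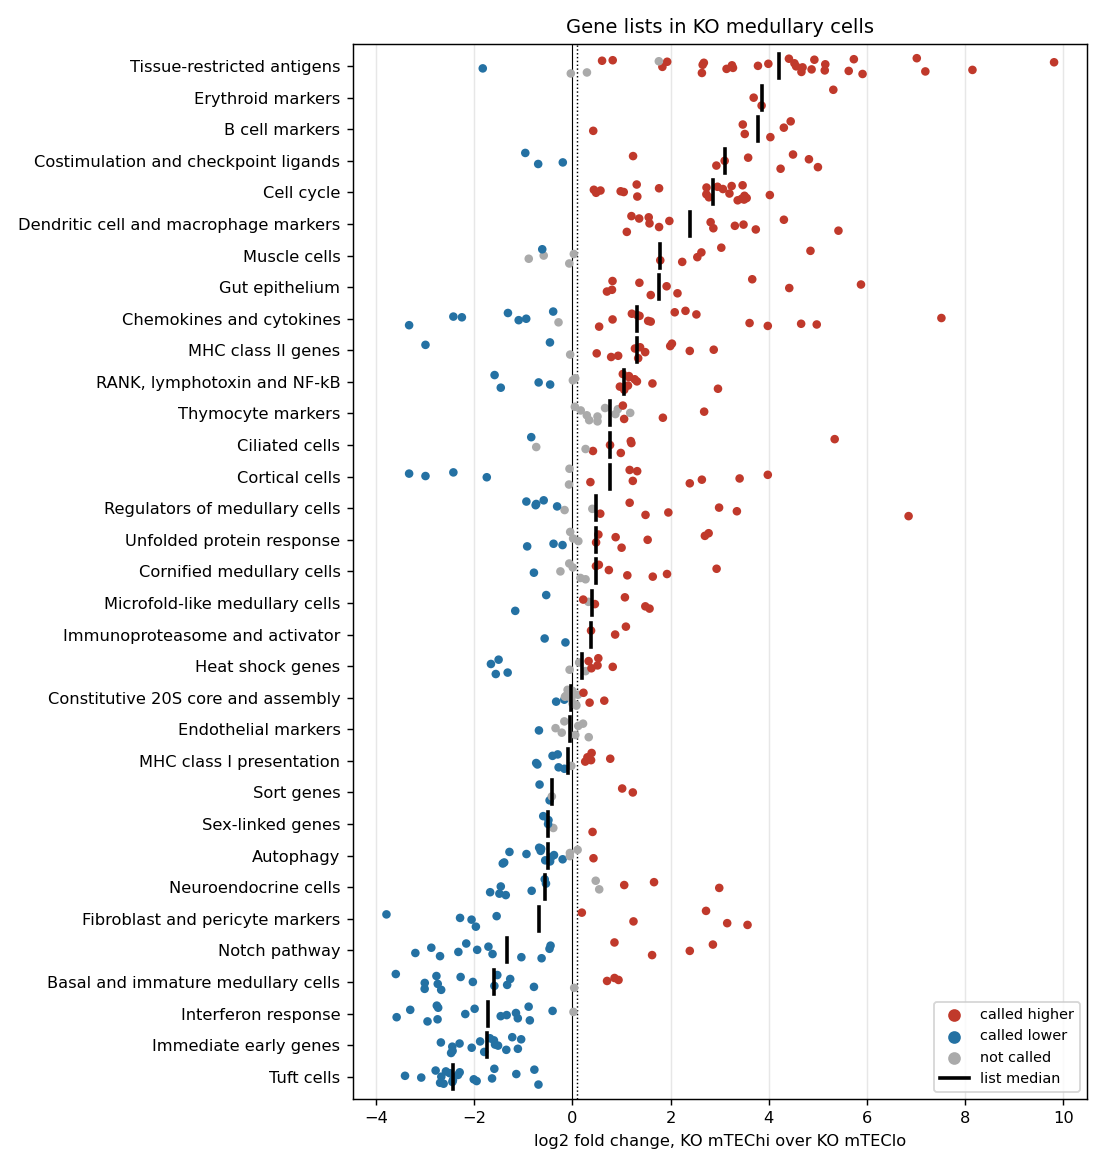
Log2 fold changes of KO mTEChi over KO mTEClo (x axis) for the tested members of 33 gene lists (rows, ordered by median), with 1 point per gene, coloured by whether it was called higher, called lower or not called, and the list median as a black bar; the dotted line is the median of all genes, 0.09. Tissue-restricted antigens (median 4.20) lie at the top and tuft cell genes (median -2.43) at the bottom.

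The MHC class II genes check the gate rather than test it, since the populations are defined by this protein. Of 14 genes of class II chains and peptide loading, 11 were called higher and 2 lower in KO mTEChi, with a median log2 fold change of 1.31. H2-Aa, the alpha chain of I-A (chromosome 17, 34282751 to 34287771), stood at 2435, 2458 and 2370.4 CPM in KO mTEClo and at 6236, 6250.1 and 5923 CPM in KO mTEChi. All mTEChi libraries exceeded all mTEClo libraries, by a log2 fold change of 1.34 (SE 0.07, edgeR adjusted p = 4.96e-11). The mTEClo libraries thus also held much class II RNA. Differences were larger for H2-Ob and H2-Oa, the chains of the peptide exchange inhibitor H2-O. H2-Ob had 20.3, 19.1 and 19.4 CPM against 149, 140.2 and 144 CPM, a log2 fold change of 2.88 (SE 0.07, edgeR adjusted p = 4.77e-14). H2-Oa rose by 2.39 log2 units (SE 0.07), the class II transactivator Ciita by 1.38 log2 units (SE 0.09) and the invariant chain Cd74 by 1.28 log2 units (SE 0.08). H2-DMa, a chain of the peptide editor, was not called (log2 fold change -0.04, SE 0.06). The proteases that trim the invariant chain split. Cathepsin S, Ctss, had 60.2, 55.9 and 58.7 CPM in KO mTEClo and 243, 227 and 226 CPM in KO mTEChi, a log2 fold change of 1.99 (SE 0.06, edgeR adjusted p = 1.73e-13). Cathepsin L, Ctsl, went the other way, from 1829, 2077 and 1937 CPM to 249, 265 and 221 CPM (log2 fold change -2.99, SE 0.09, edgeR adjusted p = 1.60e-13). The asparagine endopeptidase Lgmn was lower as well (log2 fold change -0.46, SE 0.11).

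Class II genes share promoter boxes, among them the Y box, an inverted CCAAT sequence. RefSeq promoters (GRCm38.p6, 250 bases before to 50 after the start of the gene) were at hand for 11 of the 14 class II genes. The letters GATTGG, searched on both strands, were in 7 of the 11 (63.6%) and in 18.2% of the promoters of all 27025 genes. They occurred in H2-DMa, which was not called, as well as in the 4 genes below, which had the smallest p-values among those with a match. Each line gives 60 bases, 5′ to 3′ on the strand of the gene, with the match in capitals. A match describes the sequence and is not evidence of binding.
H2-Ob promoter, chr17:34238820-34238879 (GRCm38.p6, plus strand): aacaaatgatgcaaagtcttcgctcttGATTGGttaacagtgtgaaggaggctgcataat
H2-Oa promoter, chr17:34092308-34092367 (GRCm38.p6, plus strand): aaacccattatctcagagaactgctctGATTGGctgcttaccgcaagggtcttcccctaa
H2-DMb2 promoter, chr17:34145131-34145190 (GRCm38.p6, plus strand): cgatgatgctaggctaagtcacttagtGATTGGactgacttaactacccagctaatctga
H2-Aa promoter, chr17:34287840-34287899 (GRCm38.p6, minus strand): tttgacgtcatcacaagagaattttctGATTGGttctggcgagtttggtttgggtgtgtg

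Costimulatory ligands were among the genes most raised in KO mTEChi. Of 11 costimulatory and checkpoint genes, 8 were called higher, each by at least 2-fold, and 3 lower, with a median log2 fold change of 3.10 against 0.09 for all genes. Cd80 had 8.21, 9.79 and 6.8 CPM in KO mTEClo and 141, 163 and 166 CPM in KO mTEChi, and Cd86 had 0.937, 1.07 and 1.19 CPM and 32.8, 36.3 and 33.3 CPM. Both encode ligands of CD28 on T cells, and neither overlapped between the populations. Their log2 fold changes were 4.24 (SE 0.11, edgeR adjusted p = 6.90e-14) and 5.002 (SE 0.16, edgeR adjusted p = 4.54e-13). Cd40, the receptor for CD40 ligand on thymocytes, rose from 30.5, 26.1 and 28.2 CPM to 228, 213 and 207 CPM (log2 fold change 2.93, SE 0.08, edgeR adjusted p = 5.20e-14). Icosl, the ligand of ICOS, had 64.4, 53.9 and 66.4 CPM and 564, 491 and 533 CPM (log2 fold change 3.10, SE 0.08, edgeR adjusted p = 8.28e-14). The 3 genes that fell were the inhibitory ligands Cd274 (log2 fold change -0.69, SE 0.09), which encodes PD-L1, Pdcd1lg2 (log2 fold change -0.19, SE 0.07), which encodes PD-L2, and Vtcn1 (log2 fold change -0.96, SE 0.31). Pdcd1lg2 lost its call with RLE scaling, DESeq2, the 1 CPM filter, all 16 libraries and without the second KO mTEClo library (log2 fold change -0.12), and its sign turned to 0.0542 with library totals alone.

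Signalling through RANK, CD40 and the lymphotoxin receptor to NF-kB drives medullary maturation. Of 16 genes of these pathways, 10 were called higher and 4 lower (median 1.04). RANK itself, Tnfrsf11a, was at 156, 118 and 147 CPM in KO mTEClo and at 273, 288 and 314 CPM in KO mTEChi (log2 fold change 1.06, SE 0.09, edgeR adjusted p = 5.32e-08). Its decoy receptor osteoprotegerin, Tnfrsf11b, rose more, from 33.5, 27.8 and 24.8 CPM to 222, 227 and 224 CPM (log2 fold change 2.97, SE 0.10, edgeR adjusted p = 8.34e-13). The lymphotoxin beta receptor Ltbr fell, from 129.9, 124 and 126 CPM to 45.1, 48.7 and 44.4 CPM (log2 fold change -1.46, SE 0.07, edgeR adjusted p = 1.56e-11). None of these genes overlapped between the populations. The non-canonical subunits Relb and Nfkb2 rose by 0.97 log2 units (SE 0.08) and 1.13 log2 units (SE 0.07), whereas the canonical subunits Rela and Nfkb1 fell by 0.69 and 0.45 on the log2 scale. The adaptor Traf6 rose by 1.27 log2 units (SE 0.06) and the ubiquitin ligase Birc3 by 1.03 log2 units (SE 0.06).

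Markers of dendritic cells and macrophages, which also carry class II, Cd80 and Cd86, moved with these genes. All 14 were called higher in KO mTEChi, and their summed level ran from 56.7 to 93.2 CPM in KO mTEClo and from 580.4 to 591 CPM in KO mTEChi. Lyz2, a lysozyme of myeloid cells, made up most of the sum, with 26.8, 38.1 and 47.9 CPM against 409, 430.0 and 424 CPM. Other members were low, such as the dendritic cell genes Xcr1 (5.25, 4.14 and 4.91 CPM in KO mTEChi) and Clec9a (1.71, 1.17 and 0.753 CPM), and none was at 0 in a KO library. All 6 B cell markers were called higher too, with sums from 9.99 to 15.9 CPM in KO mTEClo and from 36.4 to 38.8 CPM in KO mTEChi, and all 3 tested erythroid markers, with sums from 1.46 to 1.95 CPM in KO mTEClo and from 29.9 to 34.6 CPM in KO mTEChi. The B cell marker Cd79b lost its call without the second KO mTEChi (0.30) or the third KO mTEClo library (0.25). The dendritic cell marker Siglech lost its call without the third KO mTEChi library (1.42). Ptprc, which encodes the CD45 that the sort excluded, was not called, at 30.2, 25.96 and 17.9 CPM in KO mTEClo and 27.6, 16.1 and 11.8 CPM in KO mTEChi (log2 fold change -0.42, SE 0.28, edgeR adjusted p = 0.176). The part of these markers in the results was not tested.

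Aire, the regulator that lets medullary cells express genes of other tissues (chromosome 10, 78030022 to 78043610), had the largest log2 fold change among 14 regulators of medullary cells. It stood at 12.9, 10.1 and 13.1 CPM in KO mTEClo and at 1468, 1249 and 1446 CPM in KO mTEChi. The lowest mTEChi library was far above the highest mTEClo library, and the log2 fold change was 6.85 (SE 0.24, edgeR adjusted p = 9.09e-13). In all, 7 of the 14 regulators were called higher and 5 lower (median 0.49). Irf4 rose from 15.9, 15.6 and 16.4 CPM to 164, 155 and 169 CPM (log2 fold change 3.35, SE 0.08, edgeR adjusted p = 2.56e-14), and Irf8, a related interferon regulatory factor, rose by 1.96 log2 units (SE 0.07). Sirt1, the deacetylase that acts on Aire, was at 71.9, 77.03 and 69.03 CPM and 579, 549 and 601 CPM (log2 fold change 2.99, SE 0.09, edgeR adjusted p = 2.16e-13). Fezf2, a second regulator of tissue-restricted antigens, was already abundant in KO mTEClo, at 238, 194 and 244 CPM, and reached 634, 619 and 647 CPM in KO mTEChi (log2 fold change 1.49, SE 0.08, edgeR adjusted p = 2.43e-10). Foxn1, the master factor of thymic epithelium, rose by 1.17 log2 units (SE 0.09). The ETS family factors Elf3, Ehf and Ets2 fell by 0.75, 0.73 and 0.94 on the log2 scale.

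**Figure D2:**
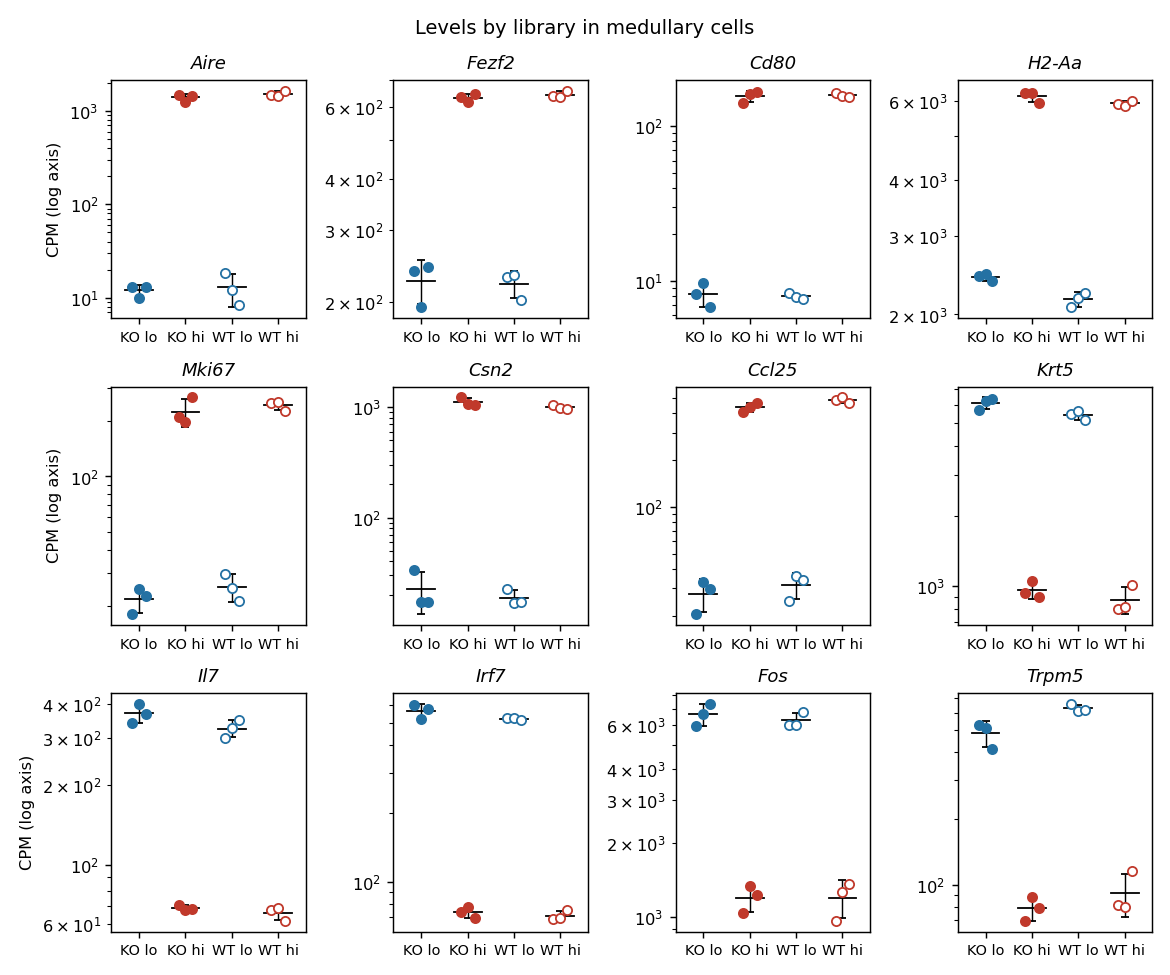
Levels of 12 genes in each medullary library (CPM on a log axis whose range differs between panels), with KO libraries as filled and WT libraries as open points, mTEClo in blue and mTEChi in red, and mean and SD of 3 libraries as line and bar. In every panel the 3 KO mTEChi libraries lie apart from the 3 KO mTEClo libraries, for instance Aire at 1388 CPM on average against 12.04 CPM.

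Most of the listed genes of peripheral tissues rose as well. Of 32 tissue-restricted antigens, 28 were called higher (26 of them by at least 2-fold) and 1 lower, with a median log2 fold change of 4.20. Beta-casein, Csn2, a milk protein, had 33.2, 17.2 and 17.2 CPM in KO mTEClo and 1230.2, 1078 and 1041 CPM in KO mTEChi (log2 fold change 5.63, SE 0.23, edgeR adjusted p = 5.63e-12). A further casein, Csn1s2a, went from 0.184, 0.143 and 0.0585 CPM to 42.3, 37.6 and 31.1 CPM (log2 fold change 8.15, SE 0.22). Neither overlapped. Insulin, Ins2, was at 0.257, 0.0305 and 0.195 CPM and 10.2, 10.02 and 9.51 CPM (log2 fold change 5.91, SE 0.39). Apolipoprotein Apoa1 rose by 4.56 log2 units (SE 0.11), the calcium-binding protein S100g by 4.41 log2 units (SE 0.11), the testis fatty acid binding protein Fabp9 by 4.52 log2 units (SE 0.16), thyroglobulin Tg by 4.93 log2 units (SE 0.18) and albumin Alb by 7.01 log2 units (SE 0.43). Csn1s2a, Ins2 and Alb lay near the floor of 3 counts in part of the KO mTEClo libraries. They passed the filter on low counts only through other libraries, so their values are a description. The count of antigens called higher includes such genes. C-reactive protein, Crp, was the 1 antigen that fell, from 95.04, 56.6 and 64.9 CPM to 24.3, 18.3 and 18.6 CPM (log2 fold change -1.82, SE 0.16, edgeR adjusted p = 5.02e-08). Not called were the islet hormone amylin, Iapp, at 39.7, 43.01 and 38.97 CPM against 40.3, 39.6 and 39.2 CPM, somatostatin, Sst, and the myelin gene Mog.

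Some genes were read in KO mTEChi and not at all in KO mTEClo. Of the tested genes, 873 had 0 counts in all 3 KO mTEClo libraries, of which 122 reached a mean of at least 1 CPM and 9 a mean of at least 5 CPM in KO mTEChi. In the other direction, 2 genes had 0 counts in all KO mTEChi libraries and 0 of them reached 1 CPM in KO mTEClo. A gene at 0 in one population passed the filter on low counts only through other libraries, so these counts describe and do not test. Among the 9 genes were Nmur2, Ntsr1, Ano2, Cckbr, Nxf3, Lipf and Ces4a. They include receptors for neuromedin U, neurotensin and cholecystokinin, and gastric lipase. Nmur2 had 15.5, 11.6 and 13.4 CPM in KO mTEChi and was at least 1405-fold higher than in KO mTEClo, taking 3 counts over the 3 mTEClo libraries as the floor. For Lipf, with 5.002, 6.52 and 3.95 CPM, the bound was at least 502-fold, the lowest of the 9. The 3 WT mTEClo libraries together held 0 to 31 counts of each of these genes, and for none was the difference between the genotypes called.

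The smallest p-values among the genes that rose belonged to a mixed group. Dhh, the ligand desert hedgehog (chromosome 15, 98893027 to 98898540), had 1.09, 1.26 and 1.27 CPM in KO mTEClo and 63.5, 62.8 and 62.4 CPM in KO mTEChi (log2 fold change 5.70, SE 0.09, edgeR adjusted p = 4.14e-15). Tnfrsf9, the costimulatory receptor 4-1BB, rose from 5.44, 5.69 and 5.09 CPM to 93.9, 91 and 89.2 CPM (log2 fold change 4.08, SE 0.07, edgeR adjusted p = 4.14e-15). Both varied little within each population and did not overlap between them. Tfap2b, a transcription factor of the AP-2 family, rose by 4.69 log2 units (SE 0.09). Ncf4, a subunit of the phagocyte NADPH oxidase, and Cd52, a leukocyte surface glycoprotein, rose by 3.63 log2 units (SE 0.07) and 4.74 log2 units (SE 0.09). The dendritic cell, macrophage and B cell markers given above rose in the same libraries, whereas Ptprc was not called. A link to these genes was not tested.

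Genes of cell division were higher in KO mTEChi without exception in the list. All 22 were called higher, 18 of them by at least 2-fold, and their median log2 fold change was 2.87. Mki67, the proliferation antigen Ki-67, had 17.99, 24.7 and 22.6 CPM in KO mTEClo and 209, 197 and 268 CPM in KO mTEChi (log2 fold change 3.37, SE 0.15, edgeR adjusted p = 1.26e-11). Top2a, the topoisomerase of replicating chromosomes, went from 15.2, 13.7 and 11.99 CPM to 152, 141 and 171 CPM (log2 fold change 3.50, SE 0.11, edgeR adjusted p = 3.96e-13). The mitotic checkpoint kinase Bub1 rose from 1.71, 1.64 and 1.49 CPM to 27.03, 24.04 and 27.6 CPM (log2 fold change 4.02, SE 0.13, edgeR adjusted p = 5.85e-13). None of these overlapped between the populations. Cyclin A2, Ccna2, rose by 3.45 log2 units (SE 0.13) and the ribonucleotide reductase subunit Rrm2 by 3.07 log2 units (SE 0.12). Some replication genes changed less: the helicase subunits Mcm2 and Mcm6 rose by 0.48 log2 units (SE 0.09) and 0.57 log2 units (SE 0.07), and the sliding clamp Pcna by 0.44 log2 units (SE 0.06).

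Promoters of cell division genes often carry CCAAT boxes, which the factor NF-Y binds. The letters CCAAT, searched on both strands, were in 16 of the 19 promoters at hand for this list (84.2%) and in 41.1% of all promoters. The search overlaps that for the Y box above, since CCAAT lies within the reverse complement of GATTGG. In the lines for Top2a and Bub1, the members with a match and the smallest p-values, the capitals mark a match on the strand opposite to the gene, and the Bub1 line ends with a further one on the gene's own strand in lower case.
Top2a promoter, chr11:99024380-99024439 (GRCm38.p6, minus strand): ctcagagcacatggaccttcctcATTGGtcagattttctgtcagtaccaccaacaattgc
Bub1 promoter, chr2:127831896-127831955 (GRCm38.p6, minus strand): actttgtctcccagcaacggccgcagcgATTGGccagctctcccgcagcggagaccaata

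The largest decrease in KO mTEChi among the named genes was that of a hedgehog co-receptor. Gas1, which binds hedgehog ligands (chromosome 13, 60174405 to 60177535), fell from 778, 855 and 855 CPM in KO mTEClo to 24.5, 19.9 and 18.2 CPM in KO mTEChi (log2 fold change -5.31, SE 0.10, edgeR adjusted p = 7.40e-15). Boc, a further hedgehog co-receptor, fell from 570.1, 606 and 634 CPM to 26.9, 26.97 and 26.5 CPM (log2 fold change -4.49, SE 0.07, edgeR adjusted p = 4.14e-15). Both were far apart between the populations. Fst, the activin antagonist follistatin, was at 166, 169 and 146 CPM and 7.78, 5.13 and 5.02 CPM (log2 fold change -4.75, SE 0.17, edgeR adjusted p = 9.51e-13). The matrix proteins Mgp and Fmod fell by 4.74 and 4.17 on the log2 scale, and the myosin light chain Myl9 by 4.48. Lifr, the receptor for leukaemia inhibitory factor, fell from 1414, 1373 and 1391 CPM to 96.8, 85.9 and 88.9 CPM (log2 fold change -3.94, SE 0.07, edgeR adjusted p = 4.14e-15). Further decreases were found for the Toll-like receptor partner Tril (log2 fold change -4.56, SE 0.13), the sulphotransferase Sult5a1 (log2 fold change -4.49, SE 0.12), the scramblase family member Plscr2 (log2 fold change -4.48, SE 0.20), the acyltransferase Lpcat2 (log2 fold change -3.27, SE 0.06) and the complement protease C1s (log2 fold change -4.13, SE 0.08). Of 10 fibroblast and pericyte markers, 5 were called higher and 5 lower in KO mTEChi. Acta2, smooth muscle actin, was at 813, 768 and 834 CPM and 63.7, 60.04 and 51.7 CPM, and the summed level ran from 1401 to 1425 CPM in KO mTEClo and from 616 to 643 CPM in KO mTEChi. Pdgfrb and Col1a1 went the other way, by 3.57 log2 units (SE 0.12) and 3.15 log2 units (SE 0.14). The part of fibroblasts or pericytes in the decreases was not tested.

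Of 17 tested genes of basal and immature medullary cells, 13 were called lower and 3 higher in KO mTEChi (median -1.59). Krt5 was at 5696, 6255 and 6372 CPM in KO mTEClo and at 932, 1051 and 897 CPM in KO mTEChi (log2 fold change -2.67, SE 0.10, edgeR adjusted p = 2.36e-12), and Krt14, its partner keratin, at 2064, 2219 and 2355 CPM and 264, 292 and 271 CPM (log2 fold change -3.01, SE 0.08, edgeR adjusted p = 6.66e-14). Both populations expressed them, without overlap. Igfbp5, an IGF binding protein, fell from 4000.3, 4682 and 5031 CPM to 388, 364 and 383 CPM (log2 fold change -3.59, SE 0.10, edgeR adjusted p = 7.59e-14). The laminin chains Lamb3 and Lama3 fell by 2.77 and 2.27 on the log2 scale, and Trp63, the p63 factor of basal epithelium, by 2.02. The claudins Cldn3 and Cldn4 and the collagen Col17a1 were the 3 that rose, by 0.71 log2 units (SE 0.11), 0.94 log2 units (SE 0.14) and 0.86 log2 units (SE 0.10). Ccl21a and Ccl21b, nearly identical chemokine genes of this population, are listed at 0 in every KO library and were not tested.

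Notch genes fell for the most part. Of 16, 12 were called lower and 4 higher (median -1.33). Among the ligands, Jag2 fell from 286, 305 and 356 CPM to 32.3, 37.4 and 33.8 CPM (log2 fold change -3.20, SE 0.11, edgeR adjusted p = 5.04e-13) and Dll1 by 2.32 on the log2 scale, whereas Dll4 rose from 8.21, 10.6 and 12.3 CPM to 54.3, 56.4 and 52.3 CPM (log2 fold change 2.39, SE 0.13, edgeR adjusted p = 1.80e-10). No ligand among these overlapped between the populations. Of the receptors, Notch3 fell by 2.69 and Notch4, at low levels, rose by 1.62 log2 units (SE 0.21). The target genes Hey1 and Hes1 fell by 2.87 and 1.94, and the coactivator Maml2 by 2.16 on the log2 scale.

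Tuft cells are chemosensory cells that also arise in the thymic medulla, and their genes were lower in KO mTEChi throughout the list. All 19 tested genes were called lower, 17 by at least 2-fold (median -2.43). Trpm5, the cation channel of taste signalling, was at 529.6, 514 and 412 CPM in KO mTEClo and 69.1, 88.95 and 78.8 CPM in KO mTEChi (log2 fold change -2.62, SE 0.14, edgeR adjusted p = 1.38e-10). The kinase Dclk1 had 511, 467 and 371 CPM and 71.3, 66.7 and 70.6 CPM (log2 fold change -2.69, SE 0.12, edgeR adjusted p = 1.38e-11), and Alox5, the lipoxygenase of leukotriene synthesis, 218, 189.8 and 159 CPM and 29.1, 32.01 and 28.2 CPM (log2 fold change -2.67, SE 0.12, edgeR adjusted p = 2.47e-11). For each of these the third mTEClo library was the lowest of its group and still far above mTEChi. The G protein alpha gustducin, Gnat3, fell by 2.43 and the cytokine Il25 by 3.08 on the log2 scale. Pou2f3, the lineage factor, changed least (log2 fold change -0.69, SE 0.13, edgeR adjusted p = 1.84e-04).

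Other medullary cell types that mimic peripheral tissues did not share one direction, and neither did all genes tested (43.2% called higher and 37.2% lower). The mixed counts below are a description beside these shares. All 10 gut epithelial genes were called higher, with a median of 1.76: the apolipoprotein Apoa4 went from 12.1, 9.33 and 9.71 CPM to 206, 227 and 233 CPM (log2 fold change 4.42, SE 0.10, edgeR adjusted p = 1.66e-14) and the homeobox factor Cdx1 from 26.8, 24.6 and 21.7 CPM to 310.1, 314 and 302 CPM (log2 fold change 3.66, SE 0.09, edgeR adjusted p = 4.59e-14). Neither overlapped. Apob rose by 5.88 log2 units (SE 0.28) and the nuclear receptor Hnf4g by 2.14 log2 units (SE 0.11). Of 11 muscle genes 6 were called higher, among them the fetal acetylcholine receptor subunit Chrng (log2 fold change 4.85, SE 0.26) and titin, Ttn (log2 fold change 3.03, SE 0.18), and 1 lower, the filament protein Des, while the myogenic factor Myog was not called (log2 fold change -0.06, SE 0.12). Of 12 neuroendocrine genes 7 were lower and 3 higher (5 and 4 with library totals alone): the factor Insm1 rose from 40.5, 32.7 and 40.9 CPM to 304, 299 and 306 CPM (log2 fold change 2.99, SE 0.09, edgeR adjusted p = 1.79e-13), whereas the granule protein Chga fell from 186, 206 and 224 CPM to 77.6, 79.9 and 83.2 CPM (log2 fold change -1.35, SE 0.14, edgeR adjusted p = 3.45e-07). Of 9 ciliated cell genes 6 were higher and 1 lower, the regulators Gmnc (log2 fold change 5.34, SE 0.31) and Foxj1 (log2 fold change 0.99, SE 0.08) among the former. Of 13 cornified cell genes 7 were higher, among them the keratin Krt77 (log2 fold change 1.93, SE 0.15) and the envelope protein Sprr1b (log2 fold change 2.94, SE 0.26), and 1 lower. Of 8 microfold-like genes 5 were called higher and 2 lower: the chemokine Ccl9 rose by 1.49 log2 units (SE 0.12) and the surface glycoprotein Gp2 fell by 1.16. Only 3 of the 8 lay above all KO mTEClo libraries, and the calls of Ccl6 and Tnfaip2 were lost without 1 KO library.

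Interferon-stimulated genes were lower in KO mTEChi. Of 16, 15 were called lower and 0 higher (median -1.72), and their summed level ran from 5552 to 5905 CPM in KO mTEClo and from 1869 to 1973 CPM in KO mTEChi. Irf7, which amplifies interferon production, was at 600.4, 523 and 574 CPM in KO mTEClo and at 73.3, 77.6 and 69.1 CPM in KO mTEChi (log2 fold change -2.95, SE 0.07, edgeR adjusted p = 3.40e-14). The RNA sensor Ddx58, also called RIG-I, was at 273, 255 and 284 CPM and 42.1, 37.7 and 40.2 CPM (log2 fold change -2.76, SE 0.07, edgeR adjusted p = 2.83e-14). In both cases the populations were clearly apart. Ifit3, which restrains viral RNA translation, fell from 362, 433 and 402 CPM to 30.2, 35.6 and 34.4 CPM (log2 fold change -3.58, SE 0.10, edgeR adjusted p = 1.15e-13), the guanylate binding protein Gbp3 fell by 2.73 and Ifi44 by 3.30 on the log2 scale. Usp18, which removes ISG15 from proteins, was not called, at 286, 271 and 273 CPM against 281, 278 and 284 CPM. The transcription factors Stat2 and Irf1 fell by 2.18 and 0.86 on the log2 scale.

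Interferon-responsive promoters often carry a repeat of TTTC or its reverse complement. The core of the interferon-stimulated response element (TTTC, any pair of bases, TTTC), searched on both strands, was in 9 of the 13 promoters at hand for this list (69.2%) and in 3.99% of all promoters. The 4 members with a match and the smallest p-values are shown in the same form as above. In Isg15 the matches lie on the opposite strand, and the capitals mark the first of them, with others further along the line.
Ddx58 promoter, chr4:40239789-40239848 (GRCm38.p6, minus strand): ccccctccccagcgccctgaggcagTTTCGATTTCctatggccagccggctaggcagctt
Gbp3 promoter, chr3:142559974-142560033 (GRCm38.p6, plus strand): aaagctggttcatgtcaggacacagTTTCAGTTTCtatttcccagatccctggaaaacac
Ifit3 promoter, chr19:34583348-34583407 (GRCm38.p6, plus strand): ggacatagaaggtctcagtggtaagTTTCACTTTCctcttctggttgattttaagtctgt
Isg15 promoter, chr4:156200862-156200921 (GRCm38.p6, minus strand): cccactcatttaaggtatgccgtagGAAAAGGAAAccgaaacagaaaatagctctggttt
For comparison, the octamer ATGCAAAT, which POU factors such as Pou2f3 can bind, was in 0 of the 15 promoters at hand for the tuft cell list and in 1.97% of all promoters, which says only that these letters are not in this window.

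All 16 immediate early genes were called lower in KO mTEChi, each by at least 2-fold (median -1.74). Fos, a subunit of the AP-1 factor, was at 5983, 6667 and 7310.0 CPM in KO mTEClo and 1038, 1341 and 1229.9 CPM in KO mTEChi (log2 fold change -2.47, SE 0.13, edgeR adjusted p = 1.29e-10), and its partner Jun at 5572, 6231 and 7454 CPM and 1038, 1272 and 1244 CPM (log2 fold change -2.44, SE 0.14, edgeR adjusted p = 2.93e-10). Both were high in every library and did not overlap. Egr1 and Egr2, zinc finger factors, fell by 2.05 and 2.44 on the log2 scale. Of 12 heat shock genes 5 were higher and 4 lower, near the shares of all genes (43.2% and 37.2%). The small chaperone Hspb1 fell from 270.3, 254 and 231 CPM to 76.4, 103 and 87.4 CPM (log2 fold change -1.50, SE 0.13, edgeR adjusted p = 2.56e-08) and the co-chaperone Dnajb1 by 1.66, while the mitochondrial chaperonin Hspd1 rose by 0.82 log2 units (SE 0.10). Hspa1a and Hspa1b fell too, but their near-identical sequences make the split of reads between them uncertain. Library totals alone gave 8 higher and 4 lower heat shock genes. Of 13 unfolded protein response genes 7 were higher and 3 lower, or 10 and 1 with library totals alone. The chaperone Hspa5, also called BiP, rose from 1049.7, 1484 and 1324 CPM to 2485, 2598 and 2652 CPM (log2 fold change 1.004, SE 0.11, edgeR adjusted p = 6.23e-07), Sdf2l1 rose by 1.53 log2 units (SE 0.08), and the factor Xbp1 fell by 0.92. Of 16 autophagy genes 12 were lower and 1 higher, or 10 and 4 with library totals alone. Map1lc3b, an autophagosome coat protein, fell from 263, 254 and 246 CPM to 101, 99.2 and 91.2 CPM (log2 fold change -1.39, SE 0.06, edgeR adjusted p = 1.10e-11) and the kinase Ulk1 by 1.28.

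Chemokine and cytokine genes differed in level in both directions. Of 23 genes, 15 were called higher in KO mTEChi and 7 lower (median 1.32). Ccl25, which attracts thymocytes and their progenitors, was at 20.4, 32.9 and 29.8 CPM in KO mTEClo and 408, 439 and 465 CPM in KO mTEChi (log2 fold change 3.98, SE 0.17, edgeR adjusted p = 6.57e-12). Ccl22, a ligand of CCR4, rose from 6.98, 5.35 and 5.72 CPM to 170.3, 226 and 173 CPM (log2 fold change 4.98, SE 0.15, edgeR adjusted p = 2.20e-13). Both were without overlap. Xcl1, which recruits XCR1-bearing dendritic cells, had 0.0551, 0.0407 and 0.039 CPM against 8.16, 9.78 and 7.57 CPM (log2 fold change 7.52, SE 0.39). Its KO mTEClo levels lay near the floor of 3 counts, and it passed the filter on low counts only through other libraries. The Xcl1 values are therefore a description. Ccl5 rose by 3.61 log2 units (SE 0.12). On the other side, the T cell survival factor Il7 fell from 341, 400.0 and 369 CPM to 70.9, 67.6 and 68.6 CPM (log2 fold change -2.42, SE 0.08, edgeR adjusted p = 3.81e-13), and Cxcl12, the ligand of CXCR4, from 217, 255 and 216 CPM to 26.1, 19.8 and 22.8 CPM (log2 fold change -3.32, SE 0.14, edgeR adjusted p = 5.04e-12). The membrane-bound chemokine Cx3cl1 fell by 2.25 on the log2 scale and the macrophage factor Csf1 by 1.31. Of 14 genes typical of cortical cells, to which Ccl25, Cxcl12 and Il7 also belong, 8 were higher and 4 lower. Tbata was at 70.8, 85.2 and 85.6 CPM and 489.6, 499.7 and 515 CPM (log2 fold change 2.64, SE 0.12, edgeR adjusted p = 1.60e-11), and the transcription factor Pax1 fell by 1.74.

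Genes of MHC class I presentation and the proteasome mostly differed by less than 2-fold. Of 12 class I genes, 5 were called higher and 6 lower, none by 2-fold (median -0.09, which turned to 0.16 with library totals alone, with 6 called higher and 2 lower). The peptide transporter subunits Tap1 and Tap2 fell, Tap1 from 397, 409 and 442 CPM to 248, 259 and 256 CPM (log2 fold change -0.71, SE 0.06, edgeR adjusted p = 4.72e-08) and Tap2 by 0.74 on the log2 scale. The chaperone Calr and the editor Tapbpl rose by 0.77 log2 units (SE 0.09) and 0.38 log2 units (SE 0.07). Of 17 genes of the constitutive 20S proteasome and its assembly, 3 were called higher, 2 lower and 12 were not called. Their median of -0.02 turned to 0.06 with RLE scaling or DESeq2 and to 0.23 with library totals, which called 12 higher and 0 lower. The alpha subunit Psma6 changed most, from 128, 158 and 135 CPM to 217, 226 and 219 CPM (log2 fold change 0.65, SE 0.08, edgeR adjusted p = 1.87e-06), and Psma4, Psmb7 and Psma5 followed at 0.35 log2 units (SE 0.07), 0.23 log2 units (SE 0.06) and -0.33 log2 units (SE 0.08), the last of them lower. The interferon-inducible subunits moved apart: Psmb10 rose from 134, 129.6 and 145 CPM to 263, 256 and 229 CPM (log2 fold change 0.87, SE 0.07, edgeR adjusted p = 1.21e-08), whereas Psmb9 fell from 128, 135 and 149.7 CPM to 96.6, 98.2 and 84.3 CPM (log2 fold change -0.56, SE 0.08, edgeR adjusted p = 1.31e-05). Psmb8 was near the threshold (log2 fold change -0.14, SE 0.06, edgeR adjusted p = 0.044) and, among the alternatives run, kept its call only without the second KO mTEChi library. Its value without another single KO library lay between -0.15 and -0.0932. The activator subunits Psme2 and Psme1 rose by 1.09 log2 units (SE 0.08) and 0.38 log2 units (SE 0.06).

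Fewer markers of the remaining cell types were called. Of 14 thymocyte markers 4 were called higher, among them Cd4 (log2 fold change 1.84, SE 0.25, edgeR adjusted p = 6.70e-06) and the pre-T cell receptor chain Ptcra (log2 fold change 2.68, SE 0.61), and 10 were not called. In both populations the first library was the highest for the recombinase Rag1, at 21.2, 12.1 and 8.17 CPM in KO mTEClo and 49.5, 14.2 and 12.7 CPM in KO mTEChi. The summed level of the list ran from 55.7 to 111 CPM in KO mTEClo and from 87.1 to 219 CPM in KO mTEChi, with overlap. Of 8 endothelial markers 1 was called lower, the receptor Tek (log2 fold change -0.68, SE 0.13), and the other 7 were not called, while library totals alone called 2 higher. Epcam, by which the cells were sorted, was at 982, 1051 and 899.5 CPM and 709, 719 and 701 CPM (log2 fold change -0.46, SE 0.07, edgeR adjusted p = 1.20e-05). Enpep, which encodes the Ly51 that the sort excluded, was low and higher in KO mTEChi, at 14.1, 15.7 and 15.8 CPM against 37.3, 33.9 and 35.9 CPM (log2 fold change 1.23, SE 0.12, edgeR adjusted p = 2.18e-07). Xist and the Y-linked genes Uty and Kdm5d were read in every KO library, and Xist rose by 0.41 log2 units (SE 0.15) while Uty and Kdm5d fell by 0.59 and 0.49. The calls of Uty and Kdm5d were lost with library totals alone, that of Kdm5d also without the second KO mTEClo library (-0.39). Xist lost its call without the third KO mTEChi library (0.22) or the first (0.35) or second (0.31) KO mTEClo library, and both Xist and Kdm5d in the fit of all 16 libraries.

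The authors' RPKM values, which scale reads by gene length and library total, allow levels to be compared between genes. In KO mTEChi the highest mean was that of Cd74, at 8885 ± 388 RPKM (SD, n = 3), followed by B2m at 5851 ± 196 RPKM and H2-Aa at 4987 ± 285 RPKM. In KO mTEClo, B2m led with 5343 ± 499 RPKM, then Cd74 with 3308 ± 215 RPKM, Fos with 2431 ± 212 RPKM, Ifitm3 with 2117 ± 95.7 RPKM and Krt5 with 2107 ± 109.7 RPKM. Cd74 and B2m were thus among the leading genes of both populations. Ubd, the ubiquitin-like modifier FAT10, reached 1869 ± 68.7 RPKM in KO mTEChi against 158 ± 3.7 RPKM in KO mTEClo, and the granule proteoglycan Srgn 1579.6 ± 119 RPKM against 158 ± 9.23 RPKM. In the count fit Ubd rose by 3.41 log2 units (SE 0.07) and Srgn by 3.17 log2 units (SE 0.07).

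**Figure D3:**
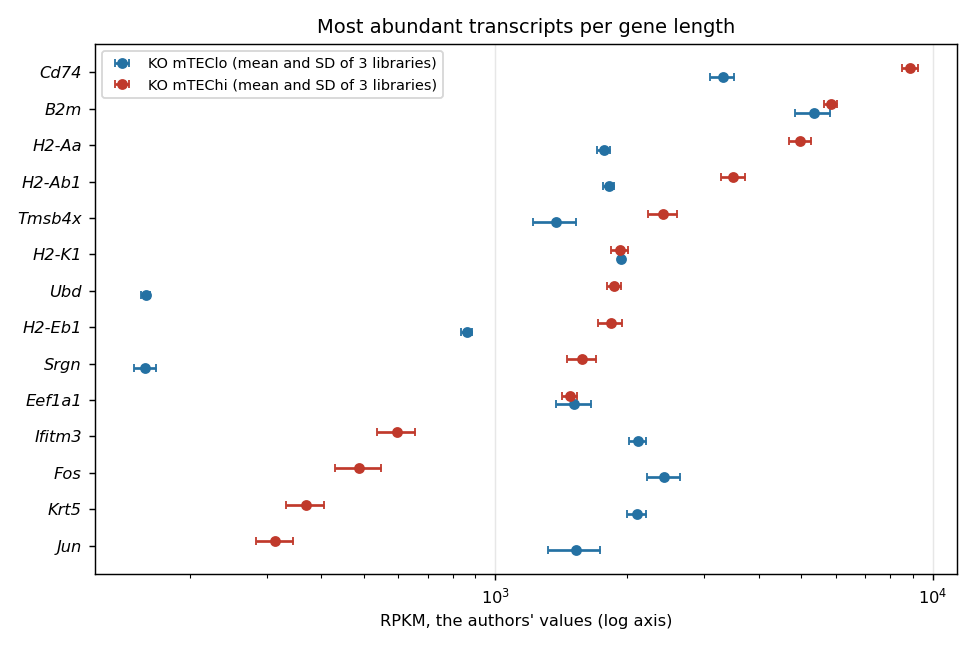
The authors' RPKM values (log axis) of the genes among the 10 highest means of either KO population, as mean and SD of 3 libraries, KO mTEClo in blue and KO mTEChi in red. Cd74 leads KO mTEChi, and Ubd and Srgn are close to 158 RPKM in KO mTEClo.

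Most genes that differed between the medullary populations without Psmb11 also differed with it. In WT, 8481 genes (42.8%) were called higher and 7293 (36.8%) lower in mTEChi. Called in both genotypes were 8063 higher genes, 94.1% of those in KO and 95.1% of those in WT, and 6864 lower genes, 93.1% and 94.1%, and 0 genes were called in opposite directions. Across the 13992 genes with a mean of at least 5 CPM in any medullary group, the log2 fold changes of KO and WT had a Pearson r of 0.986, and across all tested genes 0.947. Genes are not independent replicates, so this is a description. Aire, for instance, had a log2 fold change of 6.85 in KO and 6.88 in WT, Krt5 -2.67 and -2.63, Mki67 3.37 and 3.27, and Irf7 -2.95 and -2.88. Where the difference between the genotypes was tested directly, 1 gene was called higher (0.00505% of those tested) and 1 lower (0.00505%), while 1029 genes (5.19%) had an unadjusted p under 0.05. None of the members of the gene lists was among the 2 genes.

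**Figure D4:**
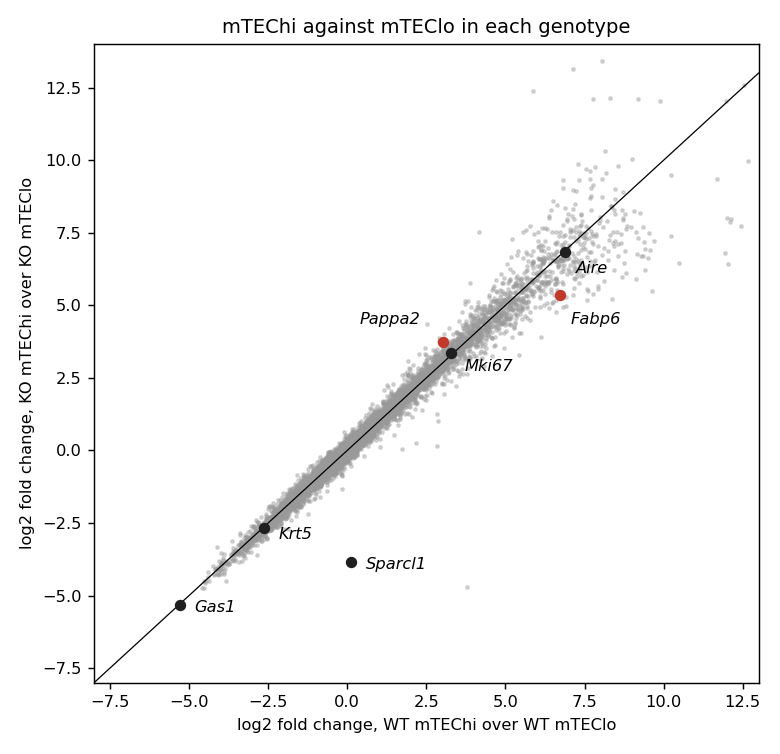
Log2 fold change of mTEChi over mTEClo in KO (y axis) against WT (x axis) for the 13992 genes with a mean of at least 5 CPM in any medullary group, with the line of equality. Most points follow the line; Fabp6 and Pappa2 (red) are the 2 genes whose difference between the genotypes was called, and Sparcl1 lies far from it, with a KO value that turned to 0.30 without the second KO mTEClo library.

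Fabp6, the bile acid binding protein of the ileum (chromosome 11, 43596040 to 43601562), was at 1.41, 1.14 and 1.18 CPM in KO mTEClo and at 52.5, 50.7 and 49.8 CPM in KO mTEChi. In WT it was at 0.406, 0.528 and 0.403 CPM in mTEClo and 50.6, 47.1 and 44.3 CPM in mTEChi. The genotypes were apart in mTEClo, where KO was higher, and overlapped in mTEChi. The log2 fold change between populations was 5.35 in KO and 6.72 in WT, a difference of -1.37 (SE 0.16, edgeR adjusted p = 0.0116). Pappa2, a protease that cleaves IGF binding proteins (chromosome 1, 158711731 to 158957438), was at 4.998, 5.17 and 4.73 CPM in KO mTEClo and 63.6, 67.8 and 65.6 CPM in KO mTEChi. Its WT levels were 7.56, 7.48 and 7.18 CPM in mTEClo and 61.6, 62.1 and 57.3 CPM in mTEChi. KO was lower than WT in mTEClo and higher in mTEChi, without overlap in either. The log2 fold change was 3.72 in KO and 3.03 in WT, a difference of 0.70 (SE 0.09, edgeR adjusted p = 0.0226). Neither call held in a fit of all 16 libraries, in voom with a weight per library, with replicate numbers as a block, or without the second or the third KO mTEChi library, and Pappa2 also lost its call without the first or the third KO mTEClo library. Without each of these libraries the difference was -1.38 or -1.35 for Fabp6 and between 0.66 and 0.70 for Pappa2.

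**Figure D5:**
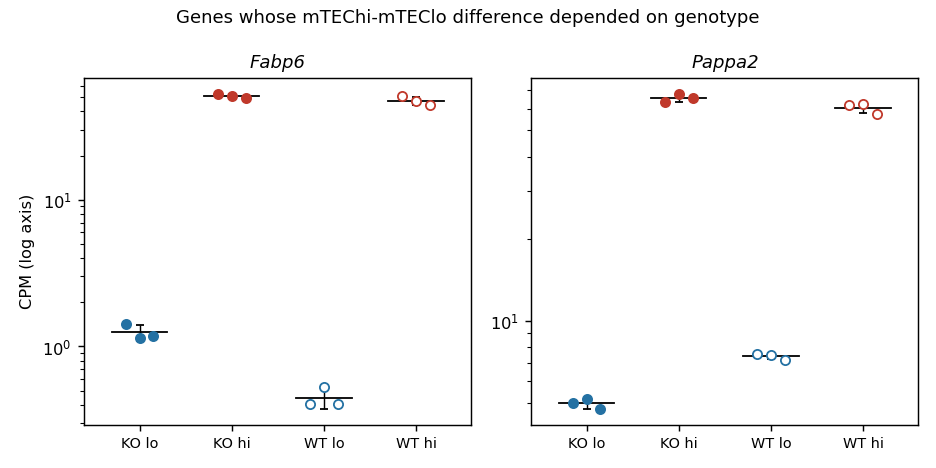
Levels of Fabp6 and Pappa2 in each medullary library (CPM, log axes with different ranges), KO as filled and WT as open points, with mean and SD of 3 libraries. For Fabp6 the genotypes separate in mTEClo, where KO has 1.25 CPM on average; for Pappa2 they separate in both populations.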

How the data were processed

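RNA of sorted thymic epithelial cells was made into libraries with the TruSeq RNA kit (v2), which does not mark strand, and sequenced on a HiSeq2000, per the labels. The authors deposited whole-number counts of reads per gene and RPKM values (read numbers divided by the length of the gene and by the library total). CASAVA 1.8.2, HTSeq 0.5.4p1 and the mm10 build are named in the submitters' processing notes, and the aligner and the annotation are not given in the sources used here. Without strand, overlapping and antisense genes cannot be told apart. The count table held 23420 genes and 5 rows that name no gene (no feature, ambiguous and similar), which were left out. Ambiguous reads made up 0.541% to 0.887% of the KO libraries. Coordinates are those of the authors' RPKM file.

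Counts of the 12 medullary libraries (4 groups of 3) were fitted together in R 4.3.3 with edgeR 4.0.16 (TMM, filterByExpr, quasi-likelihood F test, 8 residual degrees of freedom), and p-values were adjusted by Benjamini-Hochberg over 19816 genes. Cortical libraries were left out because of their larger spread (biological coefficient of variation 0.652, against 0.124 in the 12 medullary libraries). The SE is the log2 fold change divided by the root of F. Replicate libraries correlated at about 0.996 or higher and differed by more than sampling noise. Floors, and the fold bounds taken from them, cover counting error only, whereas SE and SD include the spread between libraries. The statistics were also run on simulated counts with independent libraries, and the outcome is not reported here. Alternatives used limma 3.58.1 and DESeq2 1.42.0, and figures matplotlib 3.10.9. Detection was averaged over 20 thinnings.

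The comparison and the 33 gene lists were chosen with earlier results of these data known. Genes were eligible for naming if called, changed by 1 or more on the log2 scale, free of overlap between the KO groups, at 5 CPM or more where higher, and known by an ordinary symbol. Named were the 8 largest fold changes and the 5 smallest p-values per direction, up to 4 members per list with the smallest p-values, and the genes called for the difference between genotypes. Other genes of the lists, Ces4a, Ubd, Srgn, Ifitm3, Sparcl1, Dmp1, Phex and the genes shown in the figures were chosen after their values were seen. Values of a few genes that the rule or the lists cover are not reported here.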

Additional observations from a re-analysis of the deposited data

Results flagged for a closer look

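For 2 genes the difference between mTEChi and mTEClo itself differed between the genotypes. The log2 fold change of Fabp6 was lower in KO than in WT by -1.37 (SE 0.16, edgeR adjusted p = 0.0116), with both genotypes higher in mTEChi in 3 of 3 libraries. That of Pappa2 was higher in KO than in WT by 0.70 (SE 0.09, edgeR adjusted p = 0.0226), again with both genotypes higher in mTEChi in 3 of 3 libraries. Both calls were lost with the replicate block, voom weights, all 16 libraries, or without the second or the third KO mTEChi library.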

How the results depend on the processing

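The counts of genes called higher and lower between the KO populations stayed within 1.5 times of the reported ones under every alternative run except a minimum log2 fold change of 1, which left 2397 of the lower genes. Of the 15935 calls, 84.5% (all 16 libraries) to 99.4% (no filter on low counts) kept their direction and their call. Fitted without the WT libraries, the 6 KO libraries gave 8162 higher and 7002 lower genes. For the difference between genotypes, 1029 genes had an unadjusted p under 0.05 in edgeR; DESeq2 called 7 higher and 9 lower, a fit of all 16 libraries, voom with weights and the replicate block called 0 in either direction, and leaving out 1 KO library gave 0 to 1 higher and 0 to 3 lower. Psmb11 missed the threshold in the fit of all 16 libraries, with KO minus WT at -2.92 in mTEClo and -3.34 in mTEChi. Same-numbered KO libraries correlated at 0.223, 0.0852 and 0.168 in their deviations, above every differently numbered KO pair (-0.178 to 0.0294). Same-numbered WT libraries correlated at -0.014, -0.019 and -0.174, and differently numbered ones at -0.171 to 0.181. The labels do not state pairs, and the main fit took none. With replicate block 8353 genes were higher and 7236 lower. Library totals alone turned the sign of Atg7 (0.0494), B2m (0.23), Becn1 (0.20), Ddit3 (0.0483), Edem1 (0.20), Gabarapl2 (0.20), H2-DMa (0.20), H2-K1 (0.0859), Hsp90ab1 (0.19), Krt8 (0.19), Pdcd1lg2 (0.0542), Pomp (0.22), Psma7 (0.0862), Psmb1 (0.23), Psmb2 (0.22), Psmb6 (0.20), Psmb8 (0.11) and Psmg1 (0.25), by construction through the scale. Dmp1 turned to 0.66 with voom and ranged from -5.30 to 3.65 when 1 KO library was left out, and Sparcl1 from -4.38 to 0.30, both positive without the second KO mTEClo library. Over all other pairs of a named gene and a setting, 160 lost the call, 85 gained it and 6654 stayed on their side of the threshold, some with a change of sign where the gene was called in neither fit. Further calls lost without 1 KO library were those of Chd4, Ddit3, Hspa8, Hsph1, Cd3g, Cd5, Rsph1 and Foxa2. The same held for Il33, Ly75, Rgs5, H2-K1, Psma7, Eif2s3y, Ccl6 and Tnfaip2. The list counts above include such genes. Depth limited statements on genes near 3 counts; RNA quality values were not used here.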

Other observations

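Of the genes in the medullary libraries, 2 reached at least 10 CPM in a single library and at least 10 times the level of every other one, both in the second KO mTEClo library. They were chosen after their values were seen. Sparcl1, a secreted matrix glycoprotein, was at 15.02, 906 and 20.9 CPM in KO mTEClo and at 21.0, 25.9 and 19.5 CPM in KO mTEChi. Its log2 fold change was -3.83 (SE 1.07, edgeR adjusted p = 0.00398), and 0.30 (edgeR adjusted p = 0.177) without that library. Dmp1, a matrix protein of osteocytes, was at 0.175, 134 and 0.0976 CPM in KO mTEClo and at 0.956, 2.84 and 1.44 CPM in KO mTEChi. Its log2 fold change went from -4.72 (SE 1.58, edgeR adjusted p = 0.0128) to 3.65 (SE 0.80, edgeR adjusted p = 7.05e-04) without that library. Phex, a peptidase of bone and teeth, was highest in the same KO mTEClo library, at 1.05, 12.5 and 0.615 CPM, against 6.23, 4.67 and 4.85 CPM in KO mTEChi.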
